A study of Mus musculus with 14 samples.

Results

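Myc, the D-type cyclins, their kinases and the inhibitors that hold them back were followed here in germinal centre B cells that carried 2, 1 or no floxed copies of Crebbp, the gene of a histone acetyltransferase that coactivates many transcription factors. The 10 genes were Myc, Max, Tfap4, Ccnd2, Ccnd3, Cdk4, Cdk6, Cdkn1b, Cdkn2c and Rb1. Every probe set of the array that was annotated to one of them and to no other gene was taken, which gave 24 of 45101 probe sets, for 10 of the 18193 genes that had a probe set of their own. The KO group held 5 Crebbpfl/fl Cg1-Cre mice (3 males), the HET group 5 Crebbpfl/+ Cg1-Cre mice (2 males) and the WT group 4 Crebbp+/+ Cg1-Cre mice (1 male). All mice, WT included, carried the Cg1-Cre transgene, which is known to recombine in activated B cells, on a mixed C57BL/6x129Sv background, and all were 8 to 12 weeks old. Sheep red blood cells were injected on days 0 and 5, the spleens were taken on day 12, and B220+CD95+PNA+ cells were sorted from them. One Affymetrix mouse expression array was hybridised per mouse from 25 ng of RNA, and the values were log2 intensities after RMA, a method that brings all arrays to a common distribution.

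MYC is a transcription factor that binds DNA as a pair with MAX and drives growth and cell division. In germinal centres it is known to be switched on in a minority of light zone B cells that have been selected to divide again, and TFAP4 is a transcription factor induced by MYC that carries part of its programme on. Cyclins D2 and D3 bind CDK4 and CDK6, which phosphorylate the retinoblastoma protein RB1 and so release E2F factors to start S phase, while p27, the product of Cdkn1b, and p18, the product of Cdkn2c, restrain these kinases. Cyclin D3 is the D cyclin known to sustain the divisions of dark zone germinal centre B cells.

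The 250 bases before a RefSeq gene start were read for the 6 of the 10 genes that had an entry in the RefSeq promoter table (GRCm38.p6), and 3 of them are shown because they carry the contrast in the motif that the MYC and MAX pair binds: a gene with several copies, a gene with 1 copy and a gene with none. The sequences run 5′ to 3′ on the strand of the gene, which is the plus strand for all 3. Capitals mark CACGTG, the E-box of MYC and MAX, and TGACG or its reverse complement CGTCA, the core of the cAMP response element bound by CREB, the factor after which CREBBP is named.
Cdk4, chr10:127063285-127063534: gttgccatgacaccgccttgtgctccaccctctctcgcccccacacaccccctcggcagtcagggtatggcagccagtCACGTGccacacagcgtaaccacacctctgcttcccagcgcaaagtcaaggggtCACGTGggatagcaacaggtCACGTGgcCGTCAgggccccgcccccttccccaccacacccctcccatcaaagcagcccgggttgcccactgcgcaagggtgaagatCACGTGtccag
Cdk6, chr5:3343643-3343892: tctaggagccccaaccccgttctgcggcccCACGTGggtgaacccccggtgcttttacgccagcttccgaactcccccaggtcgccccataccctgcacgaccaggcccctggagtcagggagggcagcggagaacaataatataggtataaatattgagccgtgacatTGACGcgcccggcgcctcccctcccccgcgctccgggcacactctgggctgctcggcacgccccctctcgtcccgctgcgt
Cdkn1b, chr6:134920151-134920400: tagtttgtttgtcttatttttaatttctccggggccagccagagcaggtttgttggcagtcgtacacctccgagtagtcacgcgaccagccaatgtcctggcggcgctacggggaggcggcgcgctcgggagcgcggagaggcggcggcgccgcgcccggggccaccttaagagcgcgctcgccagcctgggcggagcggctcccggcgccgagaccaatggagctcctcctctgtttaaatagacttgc
The Cdk4 window held 4 copies of CACGTG, which began 172, 118, 98 and 11 bases before the gene start, and 1 TGACG core 90 bases before it. The Cdk6 window held 1 CACGTG, 220 bases before the start, and 1 TGACG core, 81 bases before it, and the Cdkn1b window held neither motif. The windows of Ccnd3, Cdkn2c and Max, which were read but are not shown, held no CACGTG. The Cdk4 and Cdkn1b windows end where the genes begin in RefSeq, while the start used for Cdk6 lies inside the full span that RefSeq gives this gene. Searched on both strands over 32851 promoters of the same length, CACGTG stood in 6.02% and TGACG in 17.8%, and 7 promoters (0.0213%) held 4 or more copies of CACGTG. Neither CAGCTG, the E-box of TFAP4, which stood in 13% of all promoters, nor the full element TGACGTCA, which stood in 1.55%, was in any of the 3 windows. These are matches of letters in a window and no measure of binding.

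Before the members, the genotype labels and the cells were checked on the arrays. Crebbp probe set 1436983_at had log2 values of 9.29 to 9.56 in the 5 KO mice, 9.81 to 10.20 in the 5 HET mice and 10.19 to 10.36 in the 4 WT mice, so the KO mice lay below all others (KO minus WT -0.86, SE 0.09, limma adjusted p = 0.000822). The other 3 probe sets of Crebbp gave -0.47, -0.41 and -0.30 (limma adjusted p = 0.0497, 0.0719 and 0.462). All 7 measured germinal centre markers, Bcl6, Mki67, Fas, S1pr2, Rgs13, Mybl1 and Mef2b, were above the median level of the array, and their mean was 11.77 to 12.17 in KO, 11.97 to 12.17 in HET and 12.10 to 12.22 in WT mice. Of their 10 probe sets, 1 fell in KO against WT and none rose, and by gene Rgs13 lay at 10.75 to 11.48 in KO mice, below its 11.77 to 11.88 in WT mice. The B cell markers Cd79a, Ms4a1 and Pax5 averaged 11.23 to 11.39 in KO, 11.25 to 11.41 in HET and 11.26 to 11.41 in WT mice. Of their 5 tested probe sets none was called, 4 had negative KO minus WT differences and 1 a limma unadjusted p under 0.05. Cd79a lay at 12.80 to 12.87 in KO mice, below its 12.98 to 13.05 in WT mice, while Ms4a1 and Pax5 overlapped. The naive and follicular B cell markers averaged 8.74 to 9.44 in KO, 8.96 to 9.54 in HET and 9.32 to 9.44 in WT mice, with none of 3 probe sets called, 2 with a limma unadjusted p under 0.05 and a median KO minus WT difference of -0.36. Sdc1, a plasma cell marker, lay at 8.45 to 9.00 in KO mice, above its 7.67 to 8.14 in WT mice, with no call in the plasma cell list. The other plasma cell markers, Prdm1, Xbp1 and Jchain, overlapped between KO and WT mice, and Prdm1 lay at 6.87 to 7.65 in KO and 7.46 to 7.83 in WT mice. Of the 9 tested probe sets of this list, 3 had positive and 6 negative KO minus WT differences, with a median of -0.13. What part these markers have in the results that follow was not tested. Among markers of other cells, 2 of 5 T cell genes, 1 of 5 macrophage, dendritic cell and monocyte genes, 2 of 3 neutrophil genes and neither of the 2 measured erythroid genes were above that level. The mean of the T cell genes was 5.70 to 6.81 in KO, 5.67 to 6.45 in HET and 5.85 to 6.21 in WT mice, and that of the neutrophil genes 5.84 to 7.90 in KO, 5.87 to 8.53 in HET and 5.89 to 8.44 in WT mice. KO mouse 3 stood apart from the other arrays, with a median correlation to them of 0.975 where the other 13 arrays had 0.983 to 0.988. Its germinal centre marker mean, 11.77, was also the lowest of all 14 arrays, so the results that it moves most are given with and without it.

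None of the 10 genes passed the test in any comparison. Of the 24 probe sets, 22 had a mean above the median of the array (log2 6.43) and were tested, and the remaining 2, Cdk6 1460291_at with a mean of 5.10 and Rb1 1444400_at with a mean of 4.47, were too dim. In KO against WT, 0 of the 22 had an adjusted p under 0.05 in limma with sex as a covariate, where 201 of 22518 probe sets (0.893%) did. The lowest adjusted p of a member was 0.203, and 8 of the 22 had an unadjusted p under 0.05 in limma, against 9.85% of all tested. These 8 were 3 probe sets of Ccnd2 and 1 of Ccnd3, with negative changes, and both tested probe sets of Cdk6 and of Cdkn1b, with positive ones. Probe sets of one gene are not independent measurements, and the 8 stand for 4 genes. No member had KO and WT values that did not overlap, against 5.02% of all tested. The change was negative for 15 of the 22, with a median of -0.10, against 50.5% negative and a median of -0.00 over all tested. Of these 15, 7 were probe sets of Ccnd2 and 3 of Cdk4, so they are not 15 separate genes. All tested probe sets of Cdk6, Cdkn1b, Cdkn2c and Rb1 had positive changes. In bulk RNA of sorted cells, a change in the share of cells that express a gene and a change in the RNA per cell cannot be told apart.

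**Figure D1:**
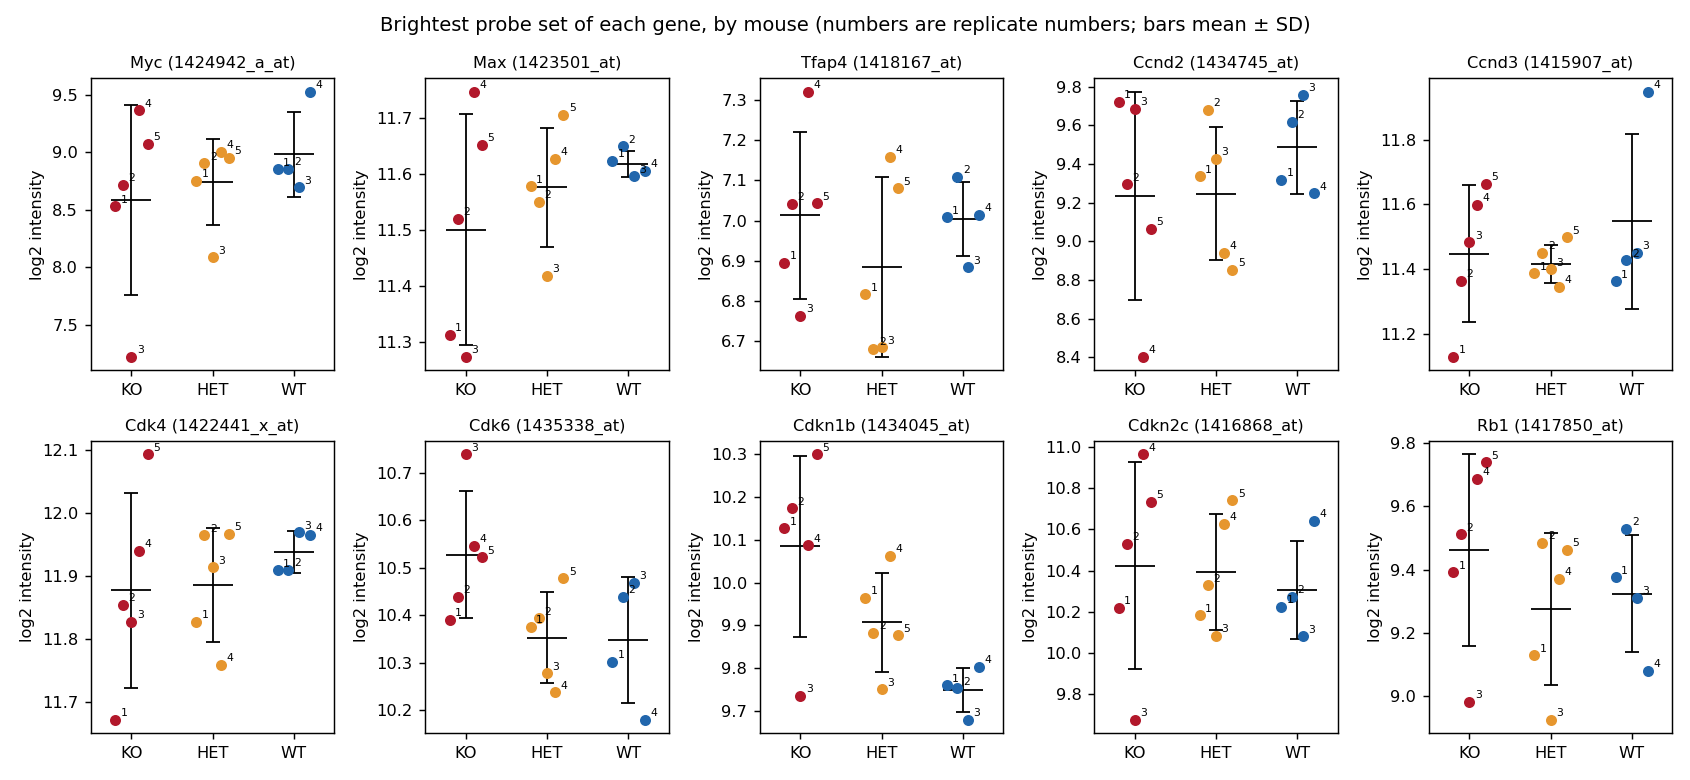
Log2 RMA values (vertical axes) of the brightest probe set of each of the 10 genes, 1 point per mouse, in KO (n = 5), HET (n = 5) and WT (n = 4) mice, with bars at the group mean ± SD. Myc spread from 7.22 to 9.37 in KO mice, while Cdkn1b lay above all WT values in 4 of 5 KO mice.

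In HET against WT and in KO against HET, 0 of the 22 members were called, as were 0% of all probe sets in each. With an unadjusted p under 0.05 in limma there were 2 members in HET against WT, both of Ccnd2, against 2% of all tested, and 2 in KO against HET, one of Cdk6 and one of Ccnd3, against 4.62% of all tested. The median change of the members was -0.09 in HET against WT and -0.01 in KO against HET. The lowest adjusted p of a member in limma was 1.00 in the first and 0.697 in the second of these comparisons. With the replicate number as a block, 1 probe set of the whole array, and no member, was called in HET against WT. KO and HET mice were both set against the same 4 WT arrays.

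**Figure D2:**
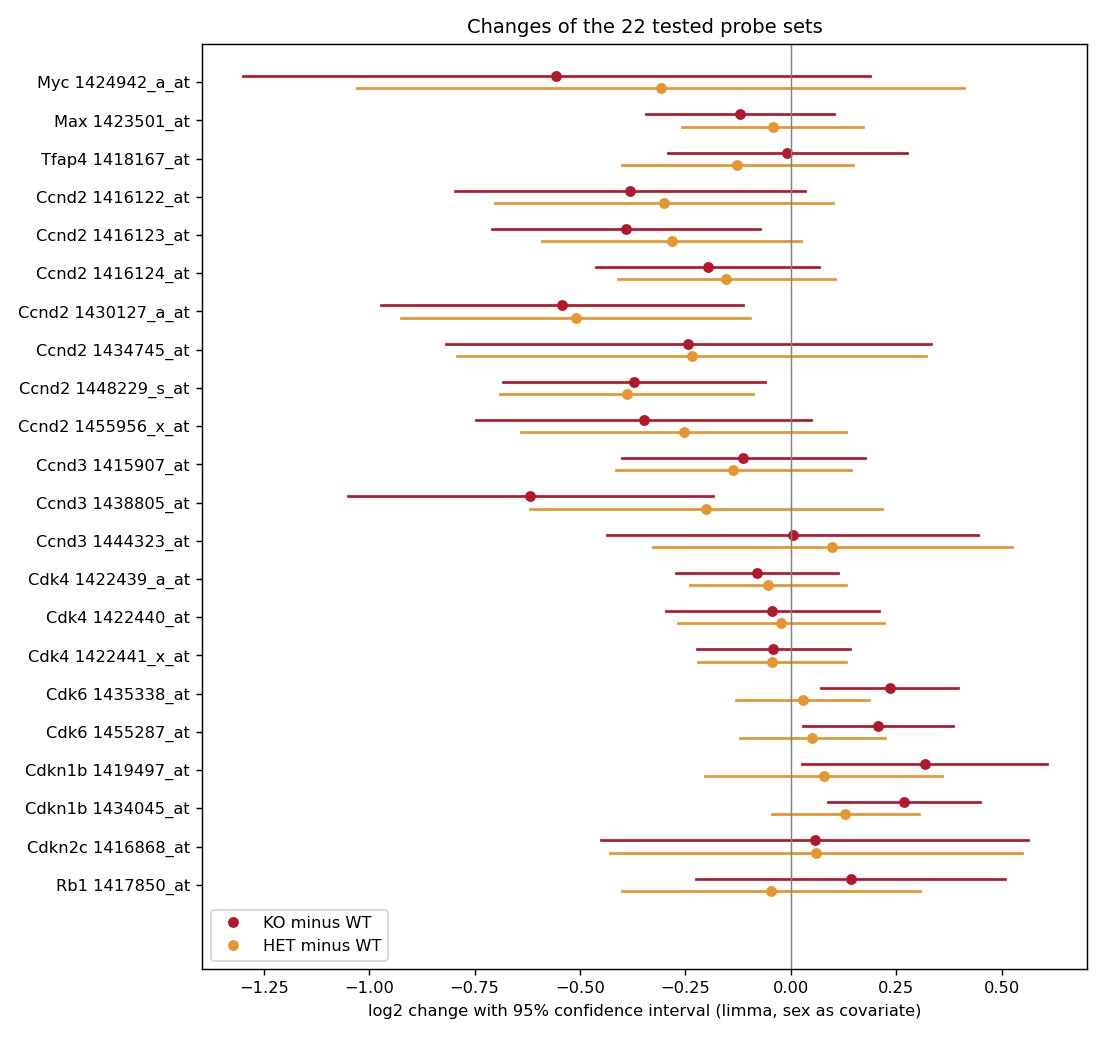
Log2 change with its 95% confidence interval (horizontal axis) for the 22 tested probe sets (rows), KO minus WT above HET minus WT in each row. Myc has the widest interval in KO minus WT, -1.30 to 0.19. Before adjustment for the number of probe sets, the KO intervals of Cdk6 and Cdkn1b lie above 0. Those of Ccnd2 1416123_at, 1430127_a_at and 1448229_s_at and of Ccnd3 1438805_at lie below 0.

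Myc, measured by 1 probe set, 1424942_a_at, varied more among KO mice than almost any other transcript. Its log2 values were 8.53, 8.72, 7.22, 9.37 and 9.08 in KO mice 1 to 5, against 8.75, 8.90, 8.09, 9.01 and 8.96 in HET mice 1 to 5 and 8.85, 8.86, 8.70 and 9.53 in WT mice 1 to 4. KO mouse 3 was the lowest of all mice and WT mouse 4 the highest, and the groups overlapped. In each group the mouse numbered 3 was the lowest and the mouse numbered 4 the highest. The labels do not say what same-numbered mice share. The SD of Myc in KO mice, 0.827, was larger than that of 99.4% of the tested probe sets in the same mice, and those in HET mice, 0.377, and in WT mice, 0.370, were larger than 93.8% and 95%. The KO minus WT difference was -0.56 (SE 0.34, 95% interval -1.30 to 0.19, limma adjusted p = 0.695), which is 68.0% of the WT level with an interval that reaches both 0.406 and 1.14 times it. Without sex as a covariate it was -0.40 (SE 0.35, limma adjusted p = 0.762), or 75.8% of the WT level. With array weights it was -0.20 (SE 0.28, limma adjusted p = 0.910). In the main fit the HET minus WT difference was -0.31 (SE 0.33, limma adjusted p = 1.00) and the KO minus HET difference -0.25 (SE 0.32, limma adjusted p = 1.00).

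The size of the Myc difference rested on single mice, and it stayed negative in each fit that left out 1 array. Without KO mouse 3 it was -0.13 (limma adjusted p = 0.912), without KO mouse 4, the highest of the KO mice, it was -0.96 (limma adjusted p = 0.178), and without both KO mouse 3 and WT mouse 4, an alternative added after the values were seen, it was 0.19 (limma adjusted p = 0.850). With the replicate number as a block it was -0.50, with a smaller error (SE 0.22, limma adjusted p = 0.438). The low germinal centre marker mean of KO mouse 3 stands beside its low Myc value, and what part it has in that value was not tested.

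Max, the partner of MYC, and Tfap4, its target, had small differences with intervals that included 0. Max 1423501_at averaged 11.50 ± 0.21 in KO mice (n = 5), 11.58 ± 0.11 in HET mice (n = 5) and 11.62 ± 0.02 in WT mice (SD, n = 4), and KO minus WT was -0.12 (SE 0.10, 95% interval -0.34 to 0.10, limma adjusted p = 0.822), or -0.03 without KO mouse 3 and -0.22 without KO mouse 4. Its 4 WT values lay within 0.05 of each other, while 2 KO mice were above and 3 below all of them. Tfap4 1418167_at averaged 7.01 ± 0.21 in KO mice (n = 5), 6.88 ± 0.22 in HET mice (n = 5) and 7.0 ± 0.09 in WT mice (SD, n = 4), with a KO minus WT difference of -0.01 (SE 0.13, 95% interval -0.29 to 0.27, limma adjusted p = 0.995). Tfap4 lies on chromosome 16, as Crebbp does, with 2 protein-coding genes between them in RefSeq.

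Ccnd2, the gene of cyclin D2, had 7 probe sets, and all 7 had negative differences in KO against WT, of -0.20 to -0.54, and in HET against WT, of -0.15 to -0.51. Since the 7 read one gene and both comparisons use the same WT arrays, these are not independent measurements. The probe set with the largest difference, 1430127_a_at, had 7.90, 7.92, 8.00, 7.33 and 7.84 in KO mice, 8.14, 8.17, 7.68, 7.48 and 7.46 in HET mice, and 7.80, 8.32, 8.30 and 8.64 in WT mice. All KO and HET mice lay below the WT mean, but WT mouse 1 lay among them. Its differences were -0.54 for KO minus WT (SE 0.20, limma unadjusted p = 0.0169, adjusted p = 0.315) and -0.51 for HET minus WT (SE 0.19, limma unadjusted p = 0.0196, adjusted p = 1.00).

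For 1448229_s_at all KO and HET mice also lay below the WT mean, with WT mouse 3 among them, and the differences were -0.37 for KO minus WT (limma unadjusted p = 0.0225, adjusted p = 0.364) and -0.39 for HET minus WT (limma unadjusted p = 0.0150, adjusted p = 1.00). A difference of -0.39 was found for 1416123_at in KO minus WT (limma unadjusted p = 0.0196, adjusted p = 0.341). The brightest probe set, 1434745_at, had 9.72, 9.30, 9.69, 8.40 and 9.07 in KO mice, 9.34, 9.68, 9.43, 8.94 and 8.85 in HET mice, and 9.32, 9.62, 9.76 and 9.25 in WT mice. Here 2 KO mice lay above the WT mean and the difference was smaller, -0.24 (SE 0.27, limma adjusted p = 0.886). It was 0.09 without KO mouse 4, the lowest of all 14 mice (limma adjusted p = 0.906), and -0.41 without KO mouse 3 (limma adjusted p = 0.651). For 1430127_a_at, 1416123_at and 1448229_s_at it was -0.67, -0.51 and -0.47 without KO mouse 3 (limma adjusted p = 0.183, 0.138 and 0.201). Without KO mouse 4 these were -0.41, -0.27 and -0.28. For 1416124_at it was -0.20 in the main fit and -0.17 without KO mouse 3. Between KO and HET mice the 7 differences were -0.11 to 0.02, and for 1430127_a_at the interval ran from -0.43 to 0.36. The 7 probe sets correlated with each other over the 14 arrays by 0.176 to 0.942, with a median of 0.606.

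**Figure D3:**
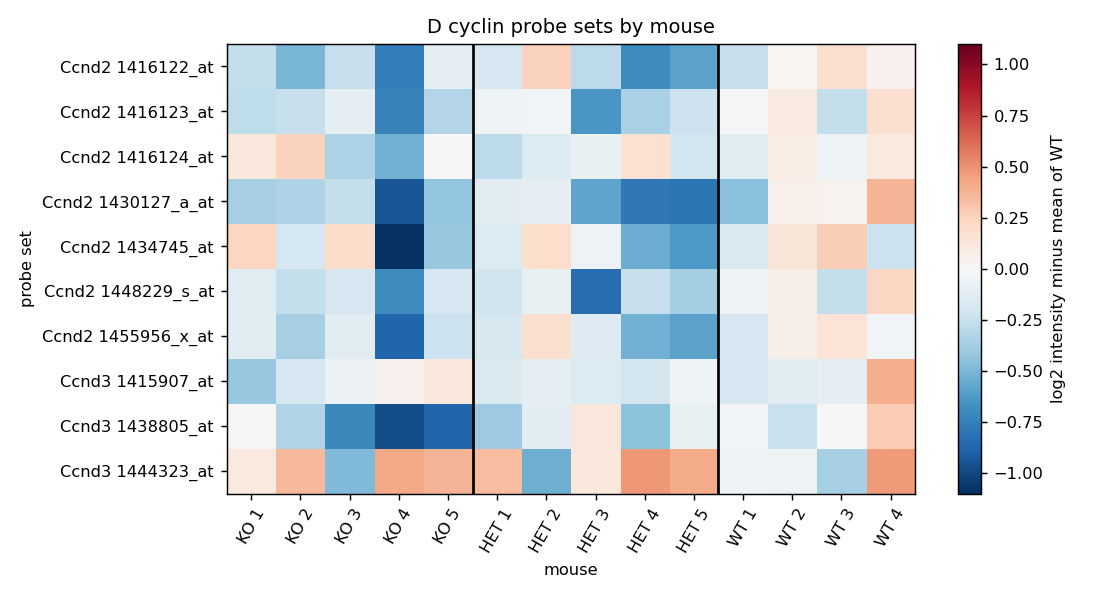
Log2 values of the 7 probe sets of Ccnd2 and the 3 of Ccnd3 (rows) in each mouse (columns, KO, HET, then WT), coloured by the difference from the mean of the WT mice. The Ccnd2 rows are mostly below the WT mean in KO and HET mice, with KO mouse 4 the lowest KO value in all 7, and the 3 Ccnd3 rows differ from each other.

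Cyclin D3 was read by 3 probe sets that did not move together, with correlations of -0.13 to 0.25 over the 14 arrays. The brightest, 1415907_at, had 11.13, 11.36, 11.48, 11.60 and 11.66 in KO mice, 11.39, 11.45, 11.40, 11.34 and 11.50 in HET mice, and 11.36, 11.43, 11.45 and 11.95 in WT mice. The WT mice other than mouse 4 lay inside the range of the KO mice, and KO minus WT was -0.11 (SE 0.13, 95% interval -0.40 to 0.18, limma adjusted p = 0.901), or 0.11 without WT mouse 4. The dimmer 1438805_at had 7.74, 7.42, 7.03, 6.77 and 6.86 in KO mice, 7.35, 7.62, 7.87, 7.30 and 7.66 in HET mice, and 7.71, 7.50, 7.74 and 8.02 in WT mice. Of the KO mice, 4 of 5 lay below all WT mice, and the difference was -0.62 (SE 0.20, limma unadjusted p = 0.00861, adjusted p = 0.227), the largest of any member. For KO minus HET it was -0.42 (SE 0.18, limma adjusted p = 1.00). The third probe set, 1444323_at, had a KO minus WT difference of 0.00 (SE 0.20, 95% interval -0.44 to 0.44, limma adjusted p = 0.998), or 0.15 without KO mouse 3 and -0.20 without KO mouse 4. The transcript regions that the 3 probe sets read were not compared here.

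For Cdk4, a kinase of the D cyclins, all differences were near 0. The 3 probe sets of this gene, which has 4 E-boxes in the promoter shown, had KO minus WT differences of -0.04 to -0.08 and HET minus WT differences of -0.02 to -0.05. For 1422441_x_at the means were 11.88 ± 0.15 in KO mice (n = 5), 11.89 ± 0.09 in HET mice (n = 5) and 11.94 ± 0.03 in WT mice (SD, n = 4), and the KO minus WT interval was -0.22 to 0.14 (limma adjusted p = 0.954). The probe sets correlated with each other by 0.83 to 0.96.

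Cdk6, the related kinase, had small positive differences in KO mice, and its 2 tested probe sets, which correlated by 0.71, gave like values. Probe set 1435338_at had 10.39, 10.44, 10.74, 10.55 and 10.52 in KO mice, 10.38, 10.39, 10.28, 10.24 and 10.48 in HET mice, and 10.30, 10.44, 10.47 and 10.18 in WT mice. KO mice 3, 4 and 5 lay above all WT mice, and all 5 lay above the WT mean. The difference was 0.23 for KO minus WT (SE 0.08, limma unadjusted p = 0.00842, adjusted p = 0.224), 0.03 for HET minus WT (SE 0.07) and 0.21 for KO minus HET (SE 0.07, limma adjusted p = 0.697). For 1455287_at KO minus WT was 0.21 (SE 0.08, limma unadjusted p = 0.0265, adjusted p = 0.393). At 1435338_at KO mouse 3 was the highest of all mice and WT mouse 4 the lowest. Without KO mouse 3 the differences were 0.19 for 1435338_at and 0.20 for 1455287_at. Without both mice they were 0.13 (SE 0.09, limma adjusted p = 0.611) and 0.14 (SE 0.11, limma adjusted p = 0.670).

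Among the inhibitors and the pocket protein, Cdkn1b had the lowest p of all members. Probe set 1434045_at had 10.13, 10.17, 9.74, 10.09 and 10.30 in KO mice, 9.96, 9.88, 9.75, 10.06 and 9.88 in HET mice, and 9.76, 9.75, 9.68 and 9.80 in WT mice. The KO mice other than mouse 3 lay above every WT mouse, and 4 of 5 HET mice did as well. The differences were 0.27 for KO minus WT (SE 0.08, 95% interval 0.09 to 0.45, limma unadjusted p = 0.00690, adjusted p = 0.203), 0.13 for HET minus WT (SE 0.08, limma adjusted p = 1.00) and 0.14 for KO minus HET (limma adjusted p = 1.00). Without KO mouse 3 the KO minus WT difference was 0.36 and passed the threshold (limma adjusted p = 0.0367), and without both KO mouse 3 and WT mouse 4 it was 0.33 (limma adjusted p = 0.184).

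The second Cdkn1b probe set, 1419497_at, had 9.24, 9.49, 9.12, 9.31 and 9.82 in KO mice, 9.26, 9.28, 9.14, 9.02 and 8.99 in HET mice, and 8.95, 8.96, 9.28 and 8.99 in WT mice. All 5 KO mice lay above the WT mean, and 3 of them above WT mouse 3, the highest of its group. KO minus WT was 0.32 (SE 0.13, limma unadjusted p = 0.0344, adjusted p = 0.443). The 2 probe sets correlated by 0.705. In females alone, with 2 KO and 3 WT mice, the differences were 0.18 for 1434045_at and 0.15 for 1419497_at, with limma adjusted p-values of 0.668 and 0.772.

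The differences of Cdkn2c and Rb1 were smaller than their errors in every comparison but that of Rb1 in KO and HET mice. Cdkn2c 1416868_at had 10.22, 10.53, 9.68, 10.96 and 10.73 in KO mice, 10.18, 10.33, 10.08, 10.63 and 10.74 in HET mice, and 10.22, 10.27, 10.08 and 10.64 in WT mice. As for Myc, KO mouse 3 was the lowest of all mice, and KO mice spanned 1.29 on the log2 scale. KO minus WT was 0.06 (SE 0.23, 95% interval -0.45 to 0.56, limma adjusted p = 0.979), or 0.31 without KO mouse 3 and -0.20 without KO mouse 4. Rb1 1417850_at averaged 9.46 ± 0.30 in KO mice (n = 5), 9.27 ± 0.24 in HET mice (n = 5) and 9.32 ± 0.19 in WT mice (SD, n = 4), and KO minus WT was 0.14 (SE 0.17, 95% interval -0.22 to 0.51, limma adjusted p = 0.902). It was 0.33 without KO mouse 3, 0.06 without KO mouse 4, 0.01 without WT mouse 4 and -0.07 in females only.

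Several of the 10 genes varied together from mouse to mouse. Over the 14 mice and the 45 pairs of genes, each gene read by its brightest probe set, 10 pairs had a correlation with a permutation p under 0.05 after Benjamini-Hochberg adjustment over the pairs, 7 of them positive. Myc and Cdkn2c had the highest, with r = 0.843 and rho = 0.886 (100000-resample permutation p = 3e-05 for r, adjusted p = 0.00135, and 6e-05 for rho, adjusted p = 0.0027). Without KO mouse 3 and HET mouse 3, the mice farthest from the Myc median, r was 0.740, and for deviations within group and sex it was 0.943. Such a value was not rare on these arrays: 4.10% of 18882 probe sets correlated with Myc at least as strongly in either direction, and 34.6% passed 0.5. For all pairs, the permutations moved the 14 mice freely across groups, sexes and replicate numbers. Myc and Cdkn2c were both lowest in mouse 3 of each group, and the permutation p-values take no account of such a shared pattern.

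Ccnd2 ran against Cdkn2c, with r = -0.832 and rho = -0.864 (permutation p = 2e-04, adjusted p = 0.0045 for r and 0.00383 for rho), and r was -0.729 without KO mouse 4 and HET mouse 5 and -0.858 within group and sex. Of all probe sets, 0.291% correlated as strongly with Ccnd2. In all pairs Ccnd2 was read by 1434745_at alone, while its 7 probe sets correlated with each other by 0.176 to 0.942. The other Ccnd2 probe sets were not set against the members, so these values hold for 1434745_at and not for the gene as a whole. Myc and Max correlated by r = 0.821 and rho = 0.807 (permutation p = 0.00055, adjusted p = 0.00825 for r and 0.00956 for rho), and r was 0.626 without KO mouse 3 and HET mouse 3 and 0.872 within group and sex. The other 7 pairs had permutation adjusted p-values of 0.0134 to 0.0454 for r and of 0.00956 to 0.0529 for rho. For Myc and Max, 5.37% of all probe sets correlated with Myc as strongly, and for these 7 pairs the shares ran from 2.31% for Tfap4 and Cdkn2c to 19.6% for Cdkn2c and Rb1. Tfap4 correlated with Cdkn2c by r = 0.765 (0.847 without the farthest pair of mice), with Max by 0.688 (0.796 without KO mice 3 and 1, the farthest for Max) and with Ccnd2 by -0.750 (-0.792 without the farthest). Max correlated with Cdkn2c by 0.757 and with Ccnd2 by -0.667, and these were 0.674 and -0.620 without KO mice 3 and 1. Ccnd3, read by 1415907_at, 1 of 3 probe sets that did not move together, correlated with Cdk4 by 0.696, or 0.744 without WT mouse 4 and KO mouse 1. Cdkn2c correlated with Rb1 by 0.670, which was 0.459 without KO mice 3 and 4. Myc and Cdk4 were not among the 10 pairs, at r = 0.366 (permutation adjusted p = 0.340).

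**Figure D4:**
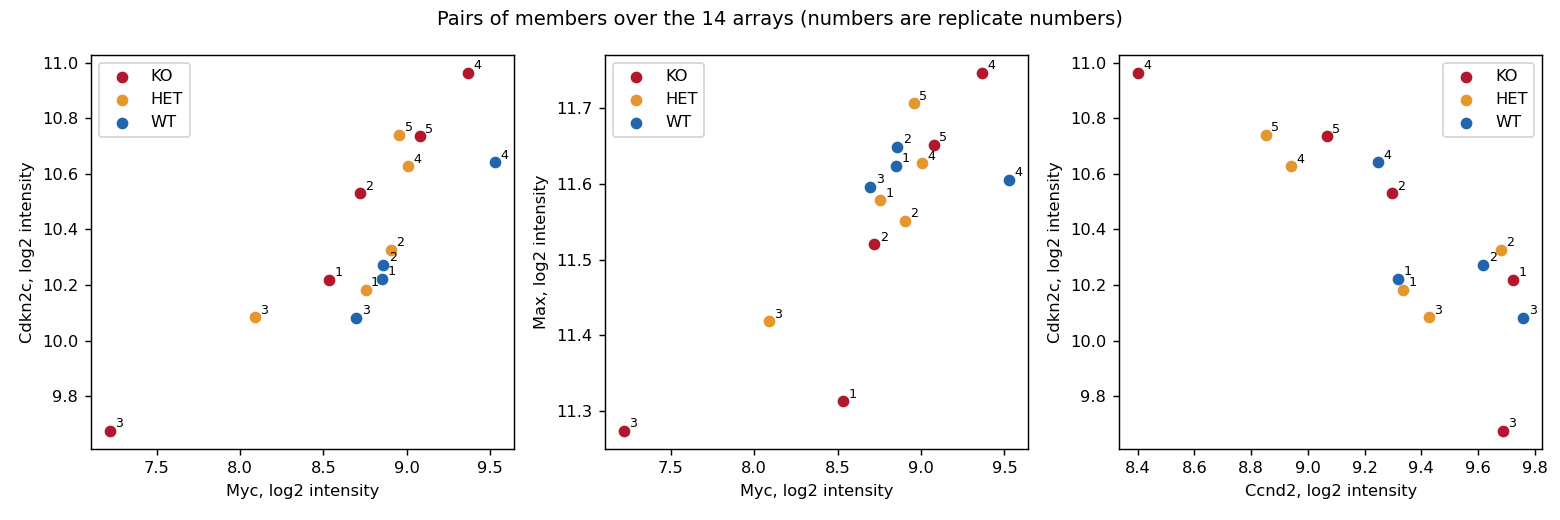
Log2 values of 3 pairs of members (axes), 1 point per mouse, in KO (n = 5), HET (n = 5) and WT (n = 4) mice. Cdkn2c was higher in mice with more Myc (r = 0.843) and lower in mice with more Ccnd2 as read by 1434745_at (r = -0.832), and Max was higher in mice with more Myc (r = 0.821).

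The transcripts most like Myc over the 14 arrays, among 18882 probe sets of other genes, were Csnk1e (r = 0.974, and 0.948 without KO mouse 3 and HET mouse 3), Wdr1 (0.972, and 0.889 without them) and Rassf2 (0.965, and 0.854 without them). The most opposed were Tmem230 (-0.936, and -0.798 without them) and Map3k3 (-0.935, and -0.728 without them). Those most like Cdkn1b 1434045_at were Jmy (0.921), Nedd4 (0.919) and Spred1 (0.919), and the most opposed were Phf11d (-0.943) and Grn (-0.927). These genes were picked for their correlation, and the arrays share groups, sexes and preparation, so the values are descriptions.

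Around the members, 6 lists of other genes of the G1 pathway were read on the same arrays, and in these a few genes passed the test in KO against WT. Over all tested probe sets, 0.893% were called in this comparison and 5.02% had KO and WT values that did not overlap. The lists were chosen with earlier results of these data known, so the calls are descriptions and no independent test of the pathway. Of the 23 tested probe sets for pocket proteins, E2F and DP factors, 3 rose and none fell, with a median change of -0.01, and all 3 were of Tfdp2, which encodes a partner that E2F factors need to bind DNA. Tfdp2 1437174_at had 8.26, 8.03, 8.20, 7.81 and 8.10 in KO mice, 7.63, 7.69, 7.52, 7.81 and 7.41 in HET mice, and 7.19, 7.19, 7.03 and 7.39 in WT mice. All KO mice lay above all WT mice, and all HET mice lay above all WT mice. It rose by 0.82 in KO mice (SE 0.10, limma adjusted p = 0.00161), and the other probe sets rose by 0.62 (1435344_at, SE 0.08, limma adjusted p = 0.00261) and 1.00 (1443962_at, SE 0.16, limma adjusted p = 0.00886). HET minus WT differences of the 3 were 0.39, 0.32 and 0.51, none of them called (limma adjusted p = 1.00 each). The 3 KO calls were kept in 23 of 24, 24 of 26 and 21 of 24 alternatives, among them all 14 fits that left out 1 array, and in females only the differences were 0.87, 0.63 and 1.09 without a call (limma adjusted p = 0.0995, 0.0953 and 0.123). One more probe set of the gene was too dim to be tested.

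In the MYC network list, 1 of 20 tested probe sets rose and none fell, with a median of 0.03. This was Mxi1 1450376_at, of a gene whose product competes with MYC for MAX. It had 9.10, 9.00, 9.32, 8.69 and 9.40 in KO mice, 8.65, 8.57, 8.55, 8.61 and 8.32 in HET mice, and 8.39, 8.28, 7.90 and 8.24 in WT mice. KO and WT mice did not overlap, and the rise was 0.85 (SE 0.14, limma adjusted p = 0.0125). The call was kept in 20 of 25 alternatives, and the losses included the fits without WT mouse 4 (limma adjusted p = 0.0744), without KO mouse 3 and WT mouse 4 (0.187), in females only (0.247) and with the replicate number as a block (0.0604). A second probe set of the gene, 1425732_a_at, gave 0.08 (SE 0.08, limma adjusted p = 0.888).

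Of the 4 tested probe sets of other CDK inhibitors, 1 rose and none fell, with a median of -0.01. Cdkn2a 1450140_a_at, which does not separate the p16 and p19 transcripts of that gene, had 6.57, 6.77, 6.81, 6.81 and 6.51 in KO mice, 6.46, 6.54, 6.26, 6.36 and 6.37 in HET mice, and 6.16, 6.38, 6.27 and 6.34 in WT mice. These values lie close to the median of the array, and the rise was 0.43 (SE 0.09, limma adjusted p = 0.0467). The HET and WT means, 6.40 and 6.29, lay below the filter level of 6.43, and the KO mean, 6.70, lay above it. The probe set was thus tested only because of its KO values, so its call cannot be read like those of brighter probe sets. The call was kept in 2 of 14 fits that left out 1 array, those without HET mouse 3 or KO mouse 5, and in 4 of all 25 alternatives. It was lost with the replicate number as a block (limma adjusted p = 0.0610).

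Among 27 tested probe sets of known MYC targets, none rose and 1 fell, with a median of -0.01. Odc1 1438761_a_at, for ornithine decarboxylase of polyamine synthesis, had 11.87, 11.92, 12.06, 11.91 and 11.89 in KO mice, 12.06, 12.04, 12.05, 12.06 and 12.06 in HET mice, and 12.12, 12.28, 12.34 and 12.34 in WT mice. All WT mice lay above all KO and HET mice, while KO and HET mice overlapped through KO mouse 3, and it fell by 0.34 in KO mice (SE 0.07, limma adjusted p = 0.0356). The call was kept in 2 of 14 fits that left out 1 array, those without WT mouse 1 or KO mouse 3, and in 6 of all 25 alternatives. It was lost with the replicate number as a block (limma adjusted p = 0.0669), and the other probe sets of Odc1 gave -0.28 (limma adjusted p = 0.150) and -0.29 (limma adjusted p = 0.403).

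The 19 tested probe sets of G1/S cyclins and kinases outside the members held no call, a median of 0.02 and no limma unadjusted p under 0.05. The 28 of genes that turn over or control the members held no call either, with a median of 0.09 and 2 probe sets with a limma unadjusted p under 0.05. In HET against WT and in KO against HET, none of the 6 lists held a call.

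**Figure D5:**
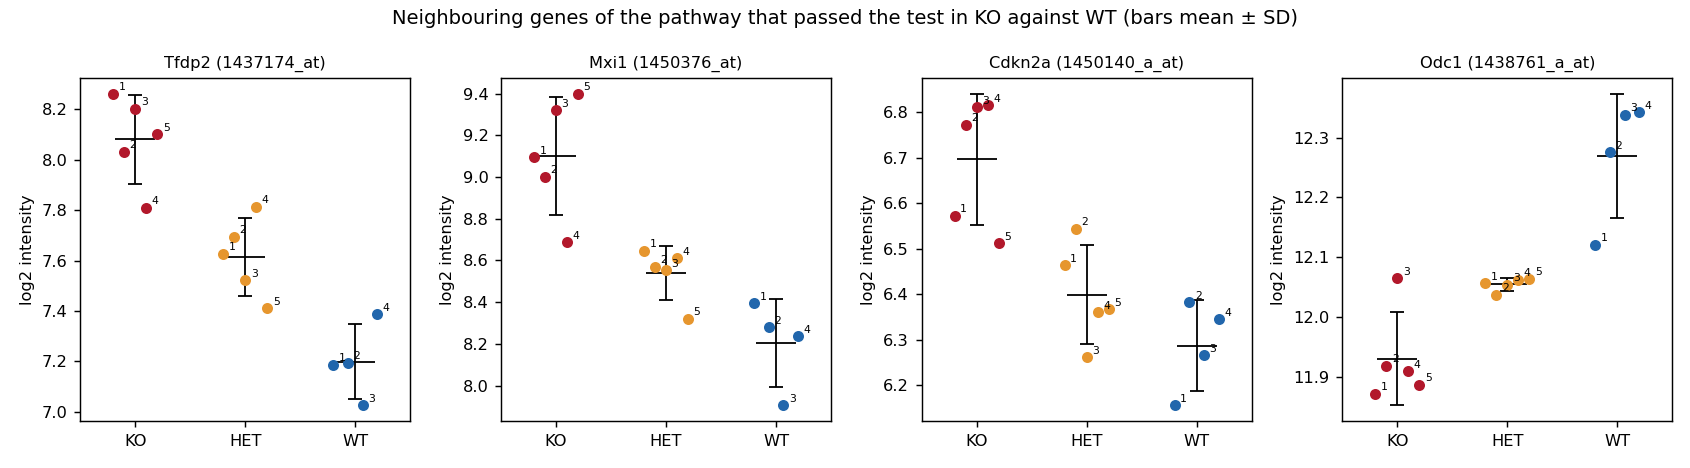
Log2 values (vertical axes) of Tfdp2, Mxi1, Cdkn2a and Odc1, the genes of the 6 lists with a call, 1 point per mouse, in KO (n = 5), HET (n = 5) and WT (n = 4) mice with bars at the group mean ± SD. HET means lie between those of KO and WT mice in each panel. The Cdkn2a probe set passed the filter for testing through its KO values.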

How the data were processed

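Germinal centre B cells of 14 mice were measured on 1-colour arrays, 1 array per mouse. The values were log2 intensities that the authors deposited after RMA (its background correction, quantile normalization and probe set summary), per the submitters' processing notes, which name RMA and no version. The values were used as deposited, and 1 alternative repeated the quantile normalization on them. The number of arrays limits the precision. Normalization to a common distribution hides any change in the total RNA per cell.

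Probe sets were named from the platform annotation: of 45101, 34945 had 1 gene, 932 several and 9160 none, and 64 were controls. Control probe sets and those with a mean at or below the median of the rest (6.43) were left out, and 22518 were tested with limma 3.58.1 (R 4.3.3), with its linear model and moderated statistics, in 1 fit of genotype and sex to the 14 arrays. P-values were adjusted over all 22518 by Benjamini-Hochberg with a threshold of 0.05. Each mouse is a replicate, as the labels list separate animals. No 2 arrays had more than 58 identical values.

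Promoters came from RefSeq (GRCm38.p6). The brightest probe set stood for its gene in correlations and likeness, and pathway genes were named where they were called. The members and lists were chosen with earlier results of these data known. The script was tested on simulated data. Same-numbered HET and WT mice deviated together (4 pairs, correlations 0.242 to 0.438), while pairs with KO mice ranged from -0.18 to 0.429, so only the numbers of HET and WT mice pair them by the rule that each pair exceed 0.1; the labels give no shared litter or day. Alternatives were the filter, 1 probe set per gene, normalization, sex, limma settings, array weights, the groups fitted, a replicate block and leaving out each array.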

Additional observations from a re-analysis of the deposited data

Results flagged for a closer look

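Within groups of 4 or 5 mice, 5 of 66 group values had 1 mouse far from the rest by Dixon's test at its 95% level, which chance alone gives in about 1 of 20 groups. Myc was 8.09 in HET mouse 3, where the other HET mice had 8.75 to 9.01. Ccnd2 was 7.33 in KO mouse 4 at 1430127_a_at, where the other KO mice had 7.84 to 8.00, and 7.07 in the same mouse at 1448229_s_at, where the others had 7.48 to 7.62. Ccnd3 1415907_at was 11.95 in WT mouse 4, where the other WT mice had 11.36 to 11.45. Cdkn1b 1419497_at was 9.28 in WT mouse 3, where the other WT mice had 8.95 to 8.99. What sets these mice apart was not tested.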

How the results depend on the processing

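Over 1650 recomputed values of the members, 1 passed the threshold, Cdkn1b 1434045_at in KO against WT without KO mouse 3, 1598 lay within 1 SE of the reported value, and 118 changed sign, none of them called in either setting. Called members in KO against WT thus ranged from 0 to 1 when each array was left out, and members with a limma unadjusted p under 0.05 ranged from 2 (without WT mouse 4) to 10 (without KO mouse 3), against 8. That count was 4 with a filter at the 75th percentile, 2 with 1 probe set per gene, 2 in females only and 5 without KO mouse 3 and WT mouse 4. Over all probe sets, the 201 calls in KO against WT became 112 with the stricter filter, 309 without the sex term, 15 in females only, 46 with only the 2 groups, 51 without KO mouse 3 and WT mouse 4, and 94 to 223 with 1 array left out. They were 105, 117, 94 and 94 without WT mice 1, 2, 3 and 4. For HET against WT, 0 calls became 1 with the stricter filter, 4 with array weights, 1 with the replicate block and 0 to 1 with 1 array left out. For KO against HET, 0 calls became 27 with 1 probe set per gene, 1 with quantile normalization repeated, 7 with arrays centred, 7 without the sex term, 3 with only the 2 groups, 4 with the replicate block, 7 without KO mouse 3 and WT mouse 4, and 0 to 8 with 1 array left out. No member was called in these or with the block, which gave 159 calls over all probe sets in KO against WT. Of 13 same-numbered pairs, 10 had deviations that correlated over 0.1 and 9 correlated best with their own number. The causes were not tested. With 4 or 5 mice, the median half-width of the members' 95% intervals in KO against WT was 0.30 on the log2 scale, which limits the size of change that could be detected.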
